A study of Homo sapiens with 6 samples.

Results

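Matrix metalloproteinases (MMPs) are zinc-dependent enzymes that cleave collagens and other proteins of the extracellular matrix, and tissue inhibitors of metalloproteinases (TIMPs) block them. The 10 genes described here were chosen by name among the 25368 gene symbols of each expression table: 4 proteases known as targets of AP-1 (MMP1, MMP3, MMP10 and MMP12), 3 proteases taken as a contrast (MMP2, MMP11 and MMP14) and 3 inhibitors (TIMP1, TIMP2 and TIMP3). Their mRNA was measured by RNA-seq in 6 bulk libraries of MRC5, a line of human embryonic lung fibroblasts that had been immortalised with hTERT. In the JUN overexpression table, an adenovirus had delivered an empty vector (control), wild-type JUN (JUN WT) or a JUN whose JNK phosphorylation sites were mutated to alanine (JUN AA). In the JNKi table, they had been left untreated (MRC5), turned into induced cancer-associated fibroblasts (iCAFs) by 7 days in medium conditioned by the breast cancer line MDA-MB-231, or made into iCAFs and treated with 1 µM of the JNK inhibitor JNK-IN-8 for 48 h (iCAFs+JNKi). The induced fibroblasts were thus the same lung line in tumour cell medium, not fibroblasts taken from a tumour. Per the paper, conditioned medium was collected without serum, while MRC5 cells were maintained with serum. Whether serum was added back is not stated. In iCAFs against MRC5, a difference in serum therefore cannot be told apart from factors of the tumour cells. The same holds for the solvent DMSO, which iCAFs received per the treatment protocol, while MRC5 is labelled as untreated.

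Each condition had 1 library. The spread between replicates is therefore unknown, no p-value is given, and whether any difference described below exceeds that spread cannot be said. Levels are in FPKM, which are scaled to gene length and to library size, so that genes can be compared within a library. The tables were normalised separately, and differences were taken only within a table. A difference between libraries is a log2(FPKM + 1) difference, which is too small for a gene of low FPKM, and a gene is called at least 2-fold higher or lower from a log2 difference of 1. In bulk RNA, fewer cells expressing a gene and less of its RNA per cell cannot be told apart.

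JUN came first, as the check of the labels. It measured 25.5 (control), 4543 (JUN WT) and 291 FPKM (JUN AA). JUN was thus higher in both overexpression libraries, but far more so in JUN WT, and the mutation and the lower JUN mRNA of JUN AA cannot be told apart in any comparison of these libraries. JUN measured 57.1 (MRC5), 55.3 (iCAFs) and 21.1 FPKM (iCAFs+JNKi). The sum of all FPKM ranged from 359944 to 613184 over the 6 libraries and was highest in JUN AA. All 9 fibroblast markers examined were present in all 6 libraries, at 12.1 FPKM or more. Of the 8 epithelial markers examined, CDH1, KRT5 and ESRP1 were listed at 0 throughout. The keratins KRT8 and KRT18 were at 5.80 FPKM or more in every library. EPCAM was at most at 0.24 FPKM, KRT19 reached 1.78 FPKM in MRC5 and KRT7 reached 1.45 FPKM in iCAFs+JNKi. The endothelial markers PECAM1, VWF, CDH5 and KDR were at most at 0.35 FPKM, and TEK reached 10.4 FPKM in iCAFs+JNKi.

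AP-1 is a transcription factor made of pairs of JUN and FOS family proteins, and kinases of the JNK family raise the activity of JUN by phosphorylating its N-terminal part. MMP1, MMP3, MMP10 and MMP12 lie side by side in a cluster of protease genes, and the promoters of several of them are textbook examples of AP-1 control. MMP1 is the interstitial collagenase, which cuts fibrillar collagen. MMP3 and MMP10 are stromelysins, which cut a broad range of matrix proteins and can activate other pro-MMPs. MMP12 is the metalloelastase, best known from macrophages. Of the contrast genes, MMP2 is a gelatinase, MMP14 is a membrane-bound collagenase that activates pro-MMP2 together with TIMP2, and MMP11 is a stromelysin-like protease known from the stroma of carcinomas.

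The promoter table of RefSeq (GRCh38.p14, from 250 bases before to 50 bases after the start of each gene) held 5 of the 10 genes, namely MMP10, MMP11, MMP14, TIMP1 and TIMP3. MMP1, MMP2, MMP3, MMP12 and TIMP2 were not matched. The 120 bases directly before the start are shown for 1 AP-1 target, 2 contrast proteases and the most abundant inhibitor, because these are the groups whose mRNA is compared below. Capitals mark exact matches to TATAAA (in MMP10) or to AGGAAG (in TIMP1), and heptamers that differ by 1 base from the AP-1 heptamer TGAGTCA.
MMP10 (chr11:102780629-102780748, minus strand): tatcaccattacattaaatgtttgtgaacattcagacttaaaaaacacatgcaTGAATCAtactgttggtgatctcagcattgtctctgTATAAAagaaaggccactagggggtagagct
TIMP1 (chrX:47582316-47582435, plus strand): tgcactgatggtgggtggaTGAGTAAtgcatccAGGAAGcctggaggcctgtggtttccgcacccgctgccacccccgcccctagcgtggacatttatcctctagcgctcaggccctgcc
MMP11 (chr22:23772729-23772848, plus strand): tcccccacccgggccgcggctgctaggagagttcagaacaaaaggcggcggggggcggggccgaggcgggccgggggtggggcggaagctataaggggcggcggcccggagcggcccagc
MMP14 (chr14:22836465-22836584, plus strand): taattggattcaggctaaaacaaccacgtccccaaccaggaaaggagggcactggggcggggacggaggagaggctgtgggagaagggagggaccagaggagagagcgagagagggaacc

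Motifs were searched on both strands of the whole window. The AP-1 heptamer TGAGTCA was in 4.95% of all 35116 promoters and the related octamer TGACGTCA in 1.85%, and 0 of the 5 matched genes held either of them in this window. TATAAA was in 11.5% of all promoters and in MMP10, from base -31 to base -26 before the start. AGGAAG, a core bound by factors of the ETS family, was in 33.6% of all promoters and in TIMP1, from -87 to -82. The near matches were chosen for display after the sequences had been seen. TGAATCA, at -67 to -61 in MMP10, was in 2.98% of all promoters, and TGAGTAA, at -101 to -95 in TIMP1, was in 2.57%, but 44.7% of all promoters held some heptamer 1 base away from TGAGTCA. TIMP1 held another such heptamer outside the stretch shown, TCAGTCA on the minus strand at -237 to -231. These matches describe the sequence only. GC content also separated the stretches printed here: it was 36.7% in MMP10, 60% in MMP14, 62.5% in TIMP1 and 77.5% in MMP11.

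Across the 6 libraries the 10 genes spanned the whole range of expression. TIMP1 was the most abundant of them in every library, between rank 10 and rank 87 of all genes. MMP1 ranged from rank 2002 in the control to rank 30 in iCAFs, and MMP3 from rank 6920 in JUN AA to rank 195 in iCAFs+JNKi. MMP10 and MMP12 stayed at or below 1.11 and 5.93 FPKM, respectively, in all 6 libraries. Genes were filtered on a mean of 1 FPKM or more over the 3 libraries of a table. Of the 10 genes, 9 passed in the JUN overexpression table (all but MMP10), and 8 passed in the JNKi table (all but MMP10 and MMP12).

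**Figure D1:**
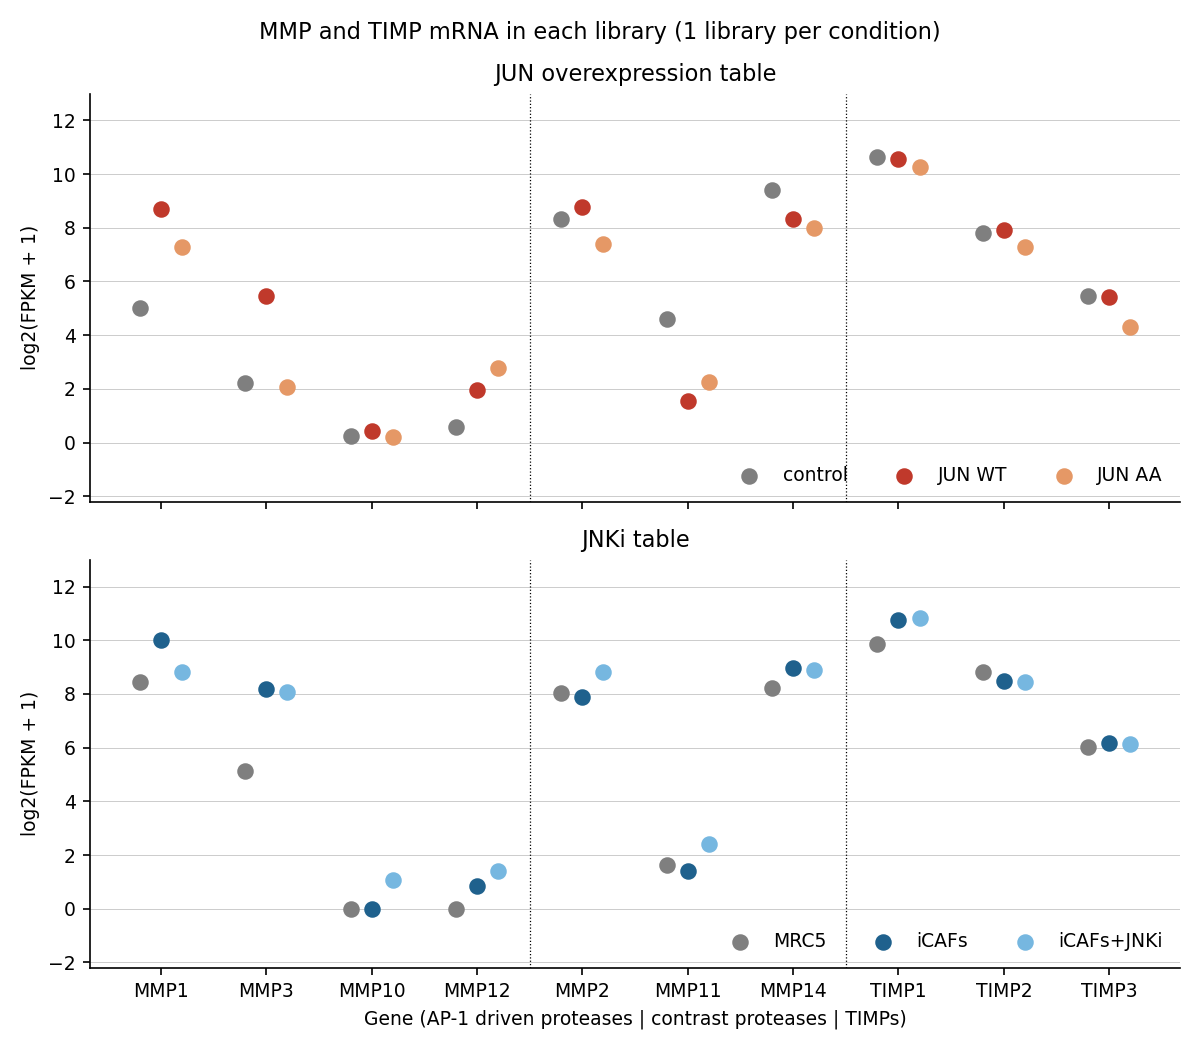
Each point is the log2(FPKM + 1) level of a gene (x axis) in 1 library, with the JUN overexpression table above and the JNKi table below; dotted lines divide the AP-1 targets, the contrast proteases and the TIMPs. MMP1 and MMP3 were higher in JUN WT than in control and in iCAFs than in MRC5, MMP11 was lower in both JUN libraries than in control, and the 3 points of each TIMP in a table lay closer together than those of MMP1.

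The collagenase MMP1 gave the largest difference of the group in JUN WT. It measured 31.1 (control), 414 (JUN WT) and 155 FPKM (JUN AA). Both JUN libraries lay above the control, with MMP1 13.3 times the control in JUN WT and 5.00 times in JUN AA. The log2 differences were 3.69 and 2.29, and only 3 and 10 genes, respectively, of the 10311 passing the filter had a larger one. Between the 2 JUN libraries, MMP1 was 1.41 higher on the log2 scale in JUN WT. In the second table, MMP1 measured 344 (MRC5), 1042 (iCAFs) and 455 FPKM (iCAFs+JNKi). It was thus 3.03 times as high in iCAFs as in MRC5 (log2 difference 1.60), and 2.29-fold lower with the inhibitor than without it (log2 difference -1.19). With the inhibitor it remained at 1.32 times the MRC5 level.

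The stromelysin MMP3 behaved like MMP1 in JUN WT and in iCAFs, but not in JUN AA or under the inhibitor. It measured 3.61 (control), 43.4 (JUN WT) and 3.21 FPKM (JUN AA). Only the JUN WT library stood out, at 12.0 times the control (log2 difference 3.27), with 6 genes having a larger difference. JUN AA lay next to the control, with a log2 difference of -0.13. MMP3 measured 33.7 (MRC5), 290 (iCAFs) and 268 FPKM (iCAFs+JNKi). Its level in iCAFs was 8.59 times that in MRC5 (log2 difference 3.07, with 24 of 11780 genes having a larger one), and it was 7.94 times the MRC5 level in the presence of the inhibitor. The log2 difference of -0.11 between iCAFs+JNKi and iCAFs was close to the median of all genes in that comparison, -0.10.

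The second stromelysin, MMP10, was close to the lower end of what was listed. It measured 0.18 (control), 0.33 (JUN WT) and 0.16 FPKM (JUN AA), and was listed at 0 in MRC5 and in iCAFs and at 1.11 FPKM in iCAFs+JNKi. No ratio of FPKM was taken against libraries at 0, where a log2(FPKM + 1) difference depends on the 1 that was added. MMP3 and MMP10 shared 59 stretches of 50 bases, which is 3.33% of those in the MMP3 transcript and 3.45% of those in MMP10, so reads from these stretches could have been assigned to either gene.

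The metalloelastase MMP12 was the only AP-1 target that was higher in JUN AA than in JUN WT. It measured 0.48 (control), 2.84 (JUN WT) and 5.93 FPKM (JUN AA). The log2 differences from the control were 1.38 (JUN WT) and 2.23 (JUN AA), and 13 genes had a larger difference in JUN AA. MMP12 was listed at 0 in MRC5 and reached 0.81 (iCAFs) and 1.64 FPKM (iCAFs+JNKi) in the other libraries of its table. Of the 7 macrophage and leukocyte markers examined, PTPRC, the pan-leukocyte marker, was at most 0.0148 FPKM in all libraries. CSF1R and ITGAM were at most at 0.16 FPKM, and AIF1 at 0.0099 FPKM. LYZ, which failed the filter, measured 0 (control), 0.02 (JUN WT) and 2.03 FPKM (JUN AA). It was thus highest where MMP12 was highest, but was listed at 0 in MRC5, iCAFs and iCAFs+JNKi. CD14, which also failed the filter, had the reverse order in the first table, at 0.62 (control), 0.24 (JUN WT) and 0.13 FPKM (JUN AA). In the second it was at 0.13 (MRC5), 0.13 (iCAFs) and 0.82 FPKM (iCAFs+JNKi). CD68 was present in all 6 libraries, between 31.1 and 85.7 FPKM, and made up most of the summed level of the 7 markers, which was 33.3 (control), 86.1 (JUN WT) and 33.2 FPKM (JUN AA). Their part in the MMP12 values was not tested.

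Of the contrast proteases, MMP11 and MMP14 were lower than the control in both JUN libraries. MMP11 measured 23.5 (control), 1.94 (JUN WT) and 3.83 FPKM (JUN AA). Both JUN libraries lay far below the control, 12.1-fold lower in JUN WT (log2 difference -3.06) and 6.13-fold lower in JUN AA (-2.34). In JUN WT, 4 genes had a more negative difference than MMP11. The gene was low throughout the JNKi table, at 2.07 (MRC5), 1.68 (iCAFs) and 4.32 FPKM (iCAFs+JNKi). With the inhibitor it was 2.57 times the level in iCAFs by the ratio of FPKM, but its log2(FPKM + 1) difference of 0.99 fell just short of 1.

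MMP14 was the most abundant of the 7 proteases in the control library, at 677 FPKM. Its levels of 319 (JUN WT) and 256 FPKM (JUN AA) were 2.12-fold and 2.65-fold lower than in the control, with log2 differences of -1.08 and -1.40. The first was -0.93, short of 2-fold, with the transcript GC medians described below subtracted. The order was different in the JNKi table, where MMP14 measured 300.02 (MRC5), 504 (iCAFs) and 471 FPKM (iCAFs+JNKi). The log2 difference between iCAFs and MRC5 was 0.75, below the 2-fold limit, although only 3.20% of all genes had a larger one. MMP14 differed by -0.10 between iCAFs+JNKi and iCAFs, the same as the median gene.

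MMP2 moved least between the control and JUN WT among the abundant proteases. It measured 319 (control), 437 (JUN WT) and 169 FPKM (JUN AA), so that JUN AA lay below both others. JUN WT was 0.45 above the control on the log2 scale, JUN AA was below it, with -0.91 (-1.22, past 2-fold, with the FPKM sums of the libraries made equal), and JUN WT exceeded JUN AA by 1.37. MMP2 measured 263 (MRC5), 237 (iCAFs) and 450 FPKM (iCAFs+JNKi), so that it was highest with the inhibitor. The log2 difference between iCAFs+JNKi and iCAFs was 0.92, the opposite direction to MMP1. Under this inhibitor MMP1 and MMP2 reached almost the same level, with an MMP1 to MMP2 ratio of 1.01, compared with 4.40 in iCAFs and 1.31 in MRC5.

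Among the inhibitors, the only differences past 2-fold were those of TIMP3 with JUN AA. TIMP1, a secreted inhibitor of most MMPs and itself known as an AP-1 responsive gene, measured 1595 (control), 1515 (JUN WT) and 1235 FPKM (JUN AA). It measured 936 (MRC5), 1737 (iCAFs) and 1830 FPKM (iCAFs+JNKi). Thus TIMP1 was 1.86 times as high in iCAFs as in MRC5 (log2 difference 0.89), differed by 0.08 with the inhibitor, and was not higher than the control in either JUN library. TIMP2, which also takes part in the activation of pro-MMP2, was at 221, 240 and 156 FPKM in the control, JUN WT and JUN AA, and at 451, 355 and 348 FPKM in MRC5, iCAFs and iCAFs+JNKi. All its log2 differences lay between -0.50 and 0.62. TIMP3, which stays bound to the matrix, was at 42.8, 41.8 and 18.8 FPKM in the JUN overexpression table. Only JUN AA stood apart there, with TIMP3 2.28-fold lower than in the control (log2 difference -1.14). JUN WT exceeded JUN AA by 1.11, but by 0.93 with differences centred on the median gene. In the JNKi table, TIMP3 was at 63.9, 70.3 and 69.3 FPKM in MRC5, iCAFs and iCAFs+JNKi.

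**Figure D2:**
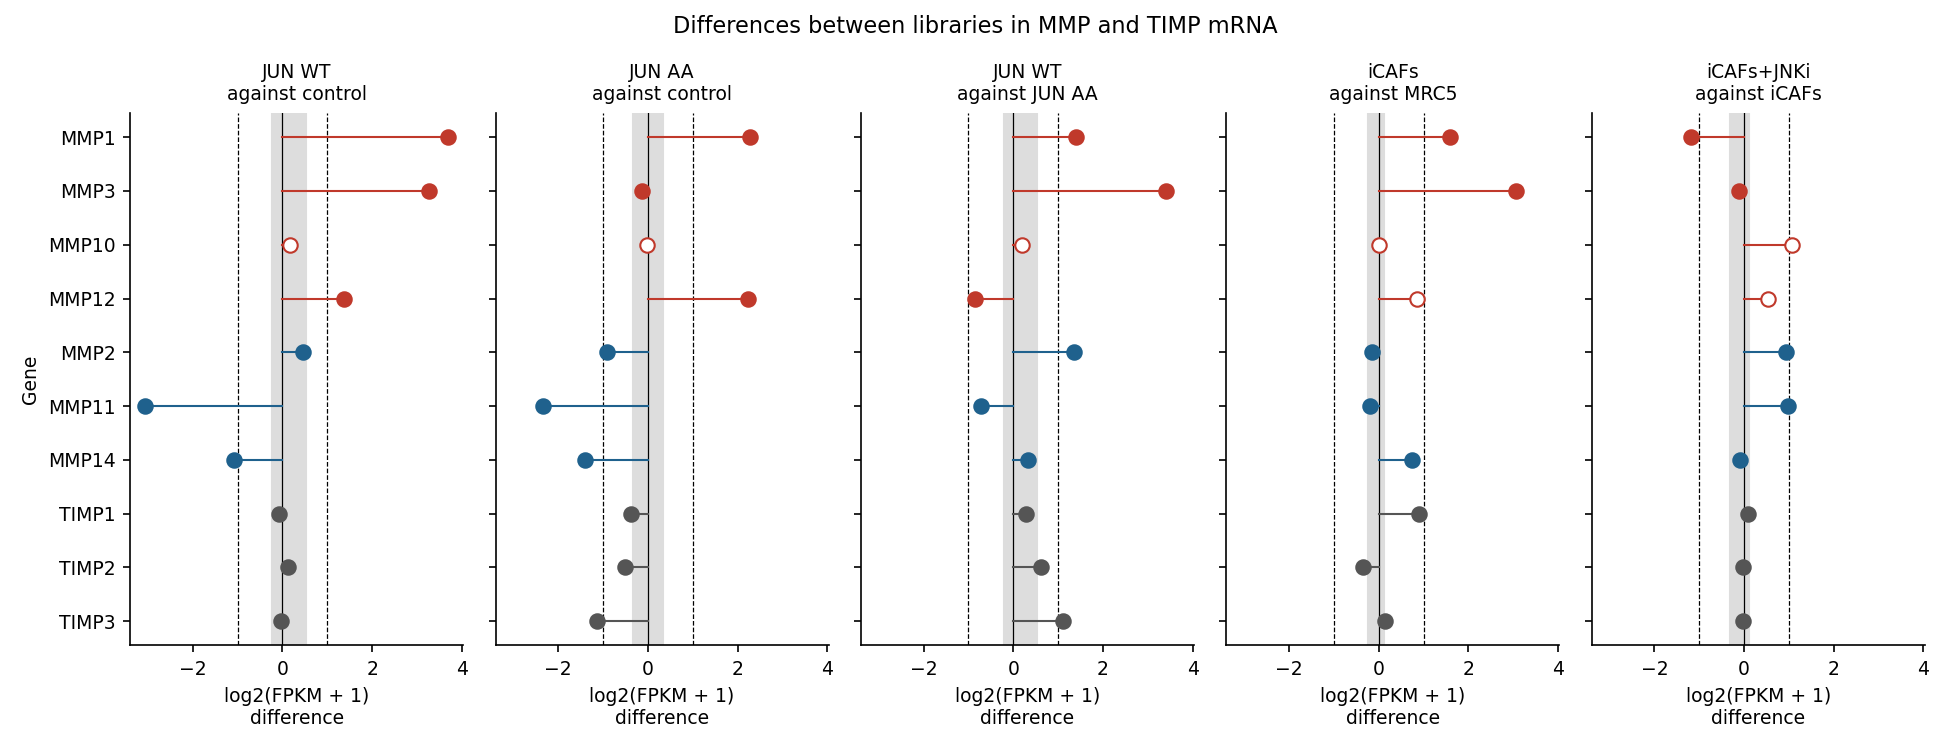
Each point is the log2(FPKM + 1) difference of a gene between 2 libraries, in 5 comparisons; red marks AP-1 targets, blue the contrast proteases and dark grey the TIMPs, open points failed the filter of a mean of 1 FPKM, the grey band spans the middle 50% of all genes passing it, and dashed lines mark 2-fold. MMP1 and MMP3 lay at 3.69 and 3.27 in JUN WT against control, and MMP11 lay at -3.06.

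Counted over the 10 genes, 3 were at least 2-fold higher in JUN WT than in the control (MMP1, MMP3 and MMP12) and 2 at least 2-fold lower (MMP11 and MMP14, of which MMP14 was not when GC medians were subtracted). Among all genes passing the filter, 6.92% were likewise higher and 3.39% lower. In JUN AA, 2 of the 10 were at least 2-fold higher than in the control (MMP1 and MMP12) and 3 at least 2-fold lower (MMP11, MMP14 and TIMP3), against 5.29% and 3.77% of all genes. MMP12, at 0.48 FPKM in the control, passed the filter only through the JUN libraries. For this gene the filter thus favoured a call of higher in both counts. In JUN WT against JUN AA, 4 were at least 2-fold higher (MMP1, MMP3, MMP2 and TIMP3) and 0 lower, against 6.65% and 5.61% of all genes. In iCAFs against MRC5, 2 of the 10 were at least 2-fold higher (MMP1 and MMP3) and 0 lower, against 1.94% and 1.71%. In iCAFs+JNKi against iCAFs, 0 of those passing the filter were at least 2-fold higher and 1 was lower (MMP1), against 2.25% and 1.97%, and MMP10, which failed it and was listed at 0 in iCAFs, had a difference of 1.08. The count of 0 higher depended on scaling, as MMP2 and MMP11 made it 2 with FPKM sums made equal, with centring on the median gene or with GC medians subtracted. JUN WT and JUN AA share their control library, and iCAFs is used in both comparisons of the JNKi table, so these counts are not independent of each other.

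The median over the 4 AP-1 targets was 2.32 in JUN WT against control, compared with -1.08 over the 3 contrast proteases, -0.03 over the 3 TIMPs and 0.15 over all genes passing the filter. In JUN AA against control the same medians were 1.10, -1.40, -0.50 and -0.02. In JUN WT against JUN AA they were 0.80, 0.32, 0.62 and 0.18. The AP-1 targets thus had the highest median of the 3 groups in each of these comparisons. The groups had been chosen with earlier results of these data known, so their order is not independent of that choice. In iCAFs against MRC5 the medians were 1.23, -0.15, 0.14 and -0.06, in the same order. In iCAFs+JNKi against iCAFs they were 0.22, 0.92, -0.02 and -0.10, and here the contrast proteases had the highest median. The AP-1 medians include MMP10, and in the JNKi table MMP12, which failed the filter that the all-gene medians apply. Without them the AP-1 medians were 3.27, 2.23, 1.41, 2.33 and -0.65 in the order of the comparisons, so that in the last of them the sign turned.

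Transcript GC content moved with part of these differences. The canonical transcripts of MMP1, MMP3, MMP10 and MMP12 had a GC content of 43.3%, 44.95%, 43.7% and 39.0%, while those of MMP2, MMP14 and MMP11 had 55.8%, 58.9% and 61.9%. Over the 9393 genes with a known GC content (91.1% of those passing the filter), the difference between JUN WT and control decreased with GC content (Spearman's rho -0.39 over genes, and genes do not replicate each other), and rho was -0.32 for JUN AA. The 470 genes in the GC bin of MMP1 had a median difference of 0.46 in JUN WT, and the 469 genes in that of MMP11 had -0.21. When the median of its bin was subtracted from each gene, the difference in JUN WT was 3.24 for MMP1, 2.83 for MMP3 and 1.07 for MMP12. MMP11 was at -2.85, whereas MMP14 was at -0.93 and no longer 2-fold lower. In iCAFs against MRC5, rho was -0.08, and MMP1 and MMP3 were at 1.64 and 3.15 after the subtraction. The part of GC content in these differences was not tested.

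**Figure D3:**
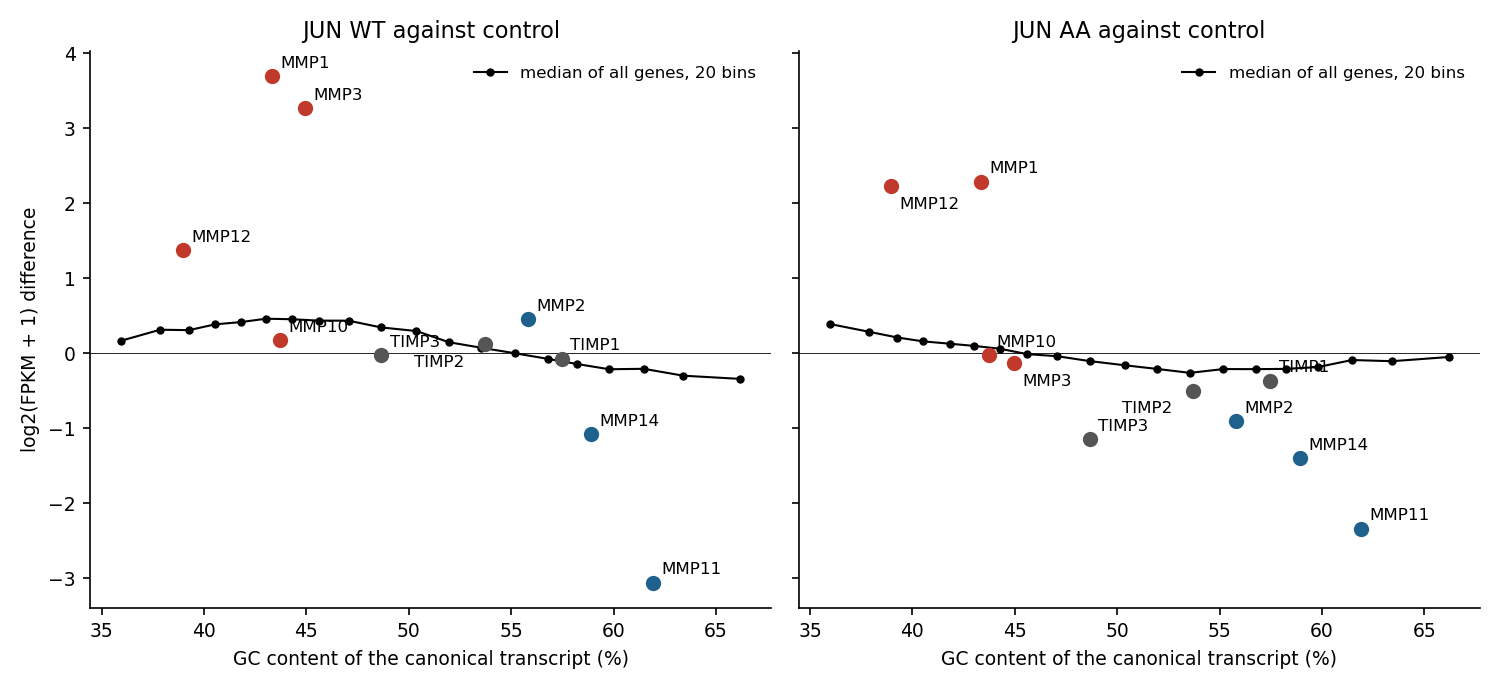
The log2(FPKM + 1) difference of each of the 10 genes (points; red AP-1 targets, blue contrast proteases, dark grey TIMPs) is plotted against the GC content of its canonical transcript, with the median of all genes in 20 GC bins as a black line. In JUN WT the line passed through 0.46 in the bin of MMP1 and -0.21 in that of MMP11, while these genes lay at 3.69 and -3.06.

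The make-up of protease mRNA differed between the libraries. Of the summed FPKM of the 7 proteases, the AP-1 targets held 3.35% (control), 37.8% (JUN WT) and 27.8% (JUN AA). MMP14 alone held 64.2% in the control and 26.2% in JUN WT, where MMP2 and MMP1 held 35.8% and 34.0%. The sum itself was 1054 (control), 1219 (JUN WT) and 593 FPKM (JUN AA). JUN WT thus differed from the control more in which proteases were expressed than in their total. The AP-1 targets of the JNKi table held 40.1% (MRC5), 64.2% (iCAFs) and 43.97% (iCAFs+JNKi), of sums of 943, 2075 and 1651 FPKM. MMP1 held 50.2% of the protease sum in iCAFs and 27.6% in iCAFs+JNKi, and MMP3 held 14.0% and 16.2%.

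Set against the inhibitors, the 7 proteases together amounted to 0.567 times the summed FPKM of the 3 TIMPs in the control, 0.678 times in JUN WT and 0.421 times in JUN AA. The ratio was 0.650 (MRC5), 0.959 (iCAFs) and 0.735 (iCAFs+JNKi). The proteases remained below the inhibitors in every library. MMP1 to TIMP1 was 0.0195 (control), 0.273 (JUN WT) and 0.126 (JUN AA), and 0.368, 0.600 and 0.249 in MRC5, iCAFs and iCAFs+JNKi, so that it was lower in iCAFs+JNKi than in MRC5. MMP3 to TIMP1 was 0.00227, 0.0286 and 0.00260 in the first table and 0.0360, 0.167 and 0.146 in the second. Within the AP-1 group, MMP1 to MMP3 was 8.60 (control), 9.55 (JUN WT) and 48.3 (JUN AA), and 10.2, 3.60 and 1.70 in MRC5, iCAFs and iCAFs+JNKi. MMP14 to TIMP2, the pair that acts on pro-MMP2, was 3.07, 1.33 and 1.64 in the control, JUN WT and JUN AA, and 0.665, 1.42 and 1.35 in the second table. These are ratios of mRNA and say nothing of enzyme activity.

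**Figure D4:**
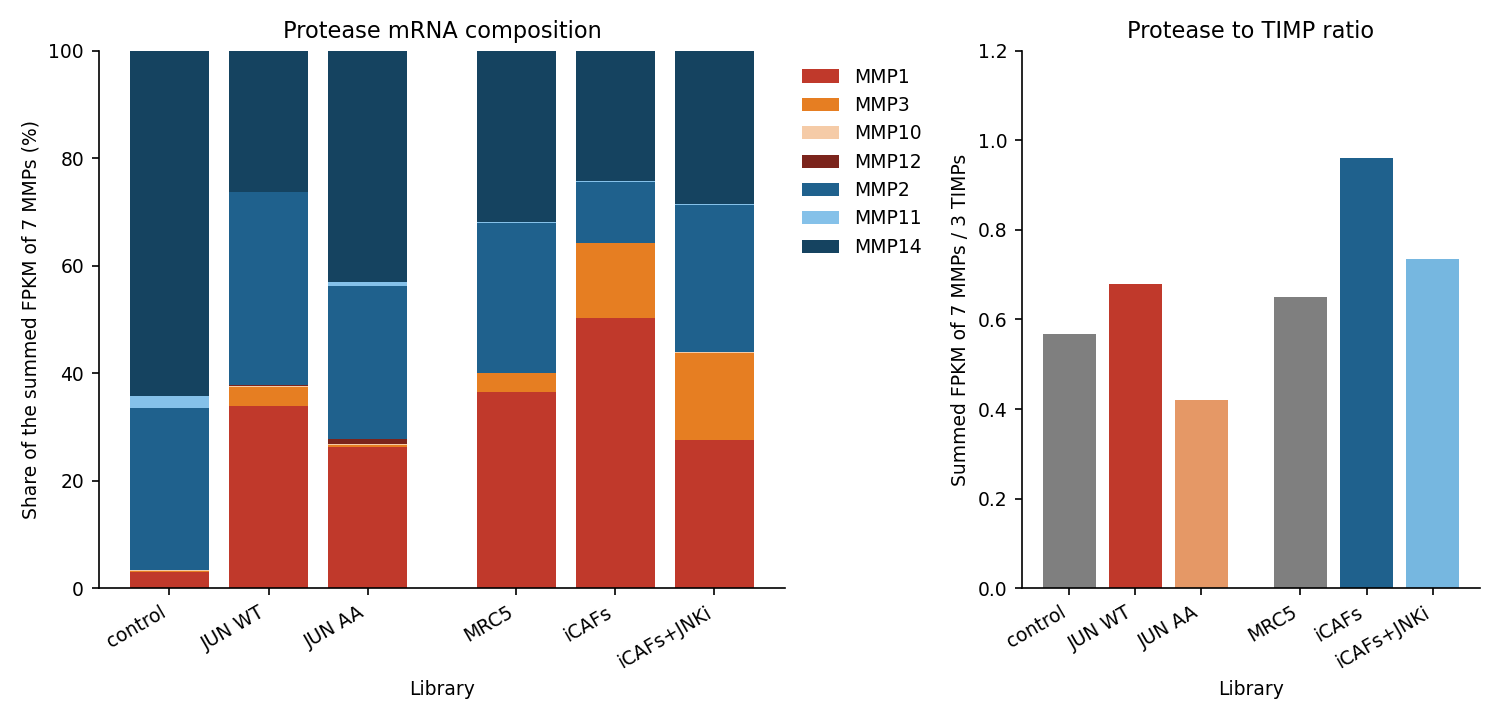
Left, the share in percent of the summed FPKM of the 7 MMPs held by each gene in each library; right, the ratio of the summed FPKM of the 7 MMPs to that of TIMP1, TIMP2 and TIMP3. The AP-1 targets (red and orange tones) took 3.35% (control), 37.8% (JUN WT) and 27.8% (JUN AA) of the bar in the first table and 40.1% (MRC5), 64.2% (iCAFs) and 43.97% (iCAFs+JNKi) in the second, and the ratio was highest in iCAFs, at 0.959.

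The 4 AP-1 targets lie in a cluster of 9 MMP genes on chromosome 11, from 102391239 to 102826461 in GRCh37, all on the minus strand. MMP10 (chr11:102641233-102651359), MMP1 (chr11:102660132-102668891), MMP3 (chr11:102706532-102714340) and MMP12 (chr11:102733467-102745712) are direct neighbours there. The other 5 genes of the cluster, MMP7, MMP8, MMP13, MMP20 and MMP27, were at most at 0.25 FPKM in any library, so that MMP1, MMP3, MMP12 and, at up to 1.11 FPKM, MMP10 were the genes of the cluster with more than that. In the annotation, 8.14% of the exon bases of MMP1 and 1.73% of those of MMP3 also belong to exons of WTAPP1, a pseudogene. The contrast genes lie elsewhere, MMP2 at chr16:55423612-55540603, MMP14 at chr14:23305769-23318250 and MMP11 at chr22:24110413-24126503. TIMP1 is at chrX:47441807-47446188, TIMP2 at chr17:76849059-76921469 and TIMP3 at chr22:33197691-33259028. TIMP2 shares 9.52% of its exon bases with CEP295NL and a second gene, and MMP2 shares 3.70% with an unnamed gene.

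Of the 16 other genes of the MMP family, 6 passed the filter in each table. Both classic inducible enzymes outside the group, the collagenase MMP13 and the gelatinase MMP9, were listed at 0 or at most at 0.00769 FPKM in all 6 libraries. In JUN WT against control, 1 of the 6 was at least 2-fold higher and 2 were at least 2-fold lower, against 6.92% and 3.39% of all genes. The first was MMP17, a membrane-anchored protease, at 1.31 (control), 5.24 (JUN WT) and 0.81 FPKM (JUN AA). The lower ones were MMP15, another membrane-bound MMP, with log2 differences of -1.36 (JUN WT) and -1.07 (JUN AA), and MMP23B, with -2.14 and -0.55. MMP23B has a near-identical copy, MMP23A, with which it shares 80.7% of its 50-base stretches, so its value is uncertain. In the JNKi table, 0 of the 6 passed 2-fold in either comparison. Of all genes, 1.94% were higher and 1.71% lower in iCAFs against MRC5, and 2.25% and 1.97% with the inhibitor. A count of 0 among 6 thus says little. There the median difference of the 6 was -0.38 for iCAFs against MRC5 and 0.36 for the inhibitor, compared with -0.06 and -0.10 over all genes.

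Of 14 genes whose products activate, inhibit or clear MMPs, all 14 passed the filter in the first table and 13 in the second. In JUN WT against control, 3 were at least 2-fold higher (6.92% of all genes) and 2 lower (3.39%). SERPINB2, an inhibitor of plasminogen activators, measured 21.6 (control), 374 (JUN WT) and 226 FPKM (JUN AA). TFPI2, a secreted inhibitor of plasmin and other serine proteases, was at 18.4, 74.9 and 20.9 FPKM. PLAUR, the receptor of urokinase, had a log2 difference of 1.13 in JUN WT and 0.10 in JUN AA. The 2 that were at least 2-fold lower were A2M, a broad trap for proteases, at 33.1 (control), 2.30 (JUN WT) and 3.53 FPKM (JUN AA), and PLAU, the urokinase that makes plasmin, an activator of pro-MMPs, with log2 differences of -1.22 and -1.47. In JUN AA, 1 of the 14 was at least 2-fold higher (SERPINB2) and 4 were lower (A2M, PLAU, LRP1 and SERPINE2), against 5.29% and 3.77% of all genes. In JUN WT against JUN AA, 3 were at least 2-fold higher (TFPI2, PLAUR and SERPINE2) and 0 lower, against 6.65% and 5.61% of all genes.

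In iCAFs against MRC5, 6 of them were higher by 2-fold or more and 0 lower, against 1.94% and 1.71% of all genes. PLAU measured 339 (MRC5), 1563 (iCAFs) and 815 FPKM (iCAFs+JNKi). TFPI2 was at 21.9, 266 and 214 FPKM, and, like MMP3, it changed little with the inhibitor (log2 difference -0.31). The others were PLAT, PLAUR, THBS1 and A2M. With the inhibitor, A2M (218 FPKM, compared with 50.03 FPKM in iCAFs), THBS1 and SERPINE2 were at least 2-fold higher, and SERPINB2 was lower (log2 difference -1.76), against 2.25% of all genes higher and 1.97% lower. PLAT (-0.99), PLAUR (-0.95) and PLAU (-0.94) fell just short of 2-fold lower. Of the 13 genes passing the filter, 8 were lower with the inhibitor by any amount and 5 were higher. PLAU was thus lower than the control in both JUN libraries although MMP1 was higher there, while in iCAFs both were higher than in MRC5. The membrane-anchored MMP inhibitor RECK and the convertase FURIN, which activates MMP11 and MMP14, stayed within 2-fold in all 5 comparisons.

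**Figure D5:**
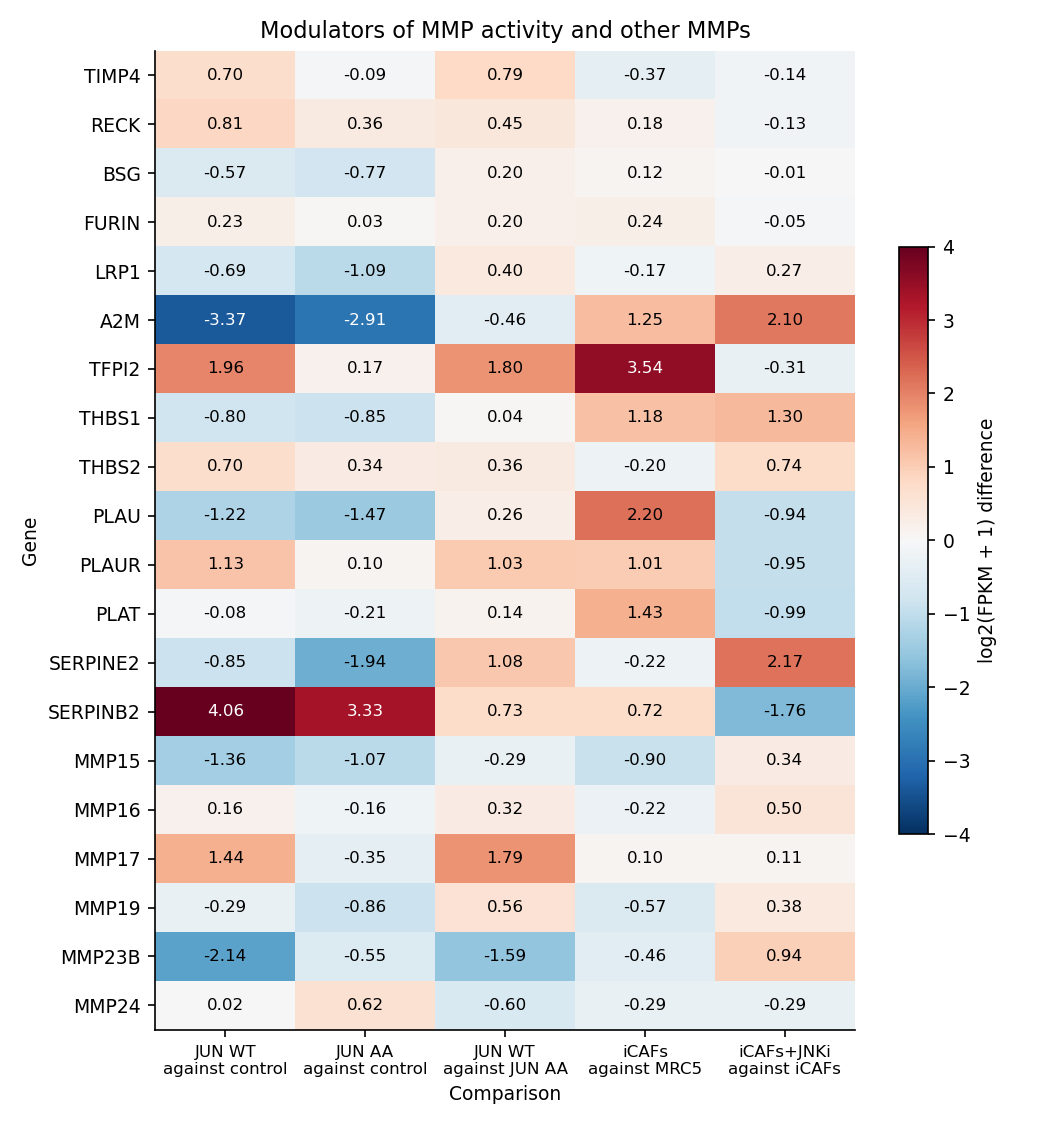
Log2(FPKM + 1) differences (colour and printed value) of 14 modulators of MMP activity and of the 6 other MMPs passing the filter in both tables, in 5 comparisons; red is higher and blue lower in the library named first. SERPINB2 (4.06) and A2M (-3.37) were the extremes in JUN WT against control, and TFPI2 (3.54) was the highest in iCAFs against MRC5.

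Of 10 genes for AP-1 subunits, 7 passed the filter in each table. In iCAFs against MRC5, 0 of the 7 passed 2-fold, with a median of 0.32 and a difference of -0.05 for JUN. Of all genes, only 1.94% were higher and 1.71% lower, so a count of 0 among 7 says little. In iCAFs+JNKi against iCAFs, JUN (-1.35) and FOSL1 (-1.02), which encodes FRA1, were at least 2-fold lower, against 1.97% of all genes. FOSL1 lay close to the limit, and FOSL2 (-0.99) and JUND (-0.93) fell just short of it. The median of the 7 was -0.93 compared with -0.10 over all genes, and JUNB (-0.06) and BATF3 (-0.10) lay close to the latter. MMP1 lay in the same direction in this comparison, whereas MMP3 was near the median gene. In JUN WT against control, 2 of the 7 were at least 2-fold higher (the overexpressed JUN itself and ATF3) and 1 was lower (JUND, -1.44). Of all genes, 6.92% were higher and 3.39% lower, and the median of the 7 was -0.07. In JUN AA against control, JUN was at least 2-fold higher and FOSL1 (-1.09) lower, against 5.29% and 3.77% of all genes. The stress-induced subunit ATF3 was at 38.2 FPKM in JUN WT, 7.87 FPKM in the control and 6.05 FPKM in JUN AA. JUN WT was the highest of the 3, as for MMP3.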

How the data were processed

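RNA-seq gene tables of 6 MRC5 libraries, 1 per condition, were analysed; primary fibroblast and chromatin data were not analysed here. The authors aligned reads with HISAT2 2.1.0 (hg19), and the deposited FPKM values are from StringTie 2.1.1. The annotation, strand setting and read numbers are not given in the sources used here, so depth and the precision of single values are unknown. Per the treatment protocol, iCAFs received the inhibitor or DMSO, although the label of the iCAFs library itself does not name DMSO.

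Of 25370 rows per table, 4 share a symbol, of which the highest was kept. The log2(FPKM + 1) differences were computed with Python 3.11.15, numpy 2.4.6 and pandas 2.3.3, over genes whose mean in the table reached 1 FPKM. With 1 library per group no test was run. The computation was tested on simulated data. Gene positions, exons and transcript GC content came from GENCODE on GRCh37, which is hg19, and promoters from RefSeq. A comparison of the proteins was planned and not run. A gene of the modulator list is not reported here.

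All 10 genes, and the genes of the other lists reaching that mean, could be named; MMP7, MMP8, MMP9, MMP13, MMP20 and MMP27, below it, were named after their values were seen. The genes and lists were chosen with earlier results of these data known. Alternatives were a pseudocount of 0.1, rescaled FPKM, centring on the median gene, a filter of 5 FPKM, no filter and summed rows. Subtracting the median of 20 bins of GC content was added after the data were seen.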

Additional observations from a re-analysis of the deposited data

How the results depend on the processing

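With 1 library per condition, no library could be left out and the error of every value is unknown. No paired analysis was possible because each group has 1 library. Of 50 differences, 10 genes in 5 comparisons, 41 kept their sign and 43 their side of 2-fold under all the alternatives. MMP1, MMP3 and MMP11 kept both in every comparison except MMP3 (up to 0.02) and MMP11 (up to 1.31) under the inhibitor. MMP14 crossed 2-fold in JUN WT (-0.93 with GC medians subtracted), TIMP3 in JUN WT against JUN AA (as low as 0.68), MMP12 in JUN WT against JUN AA (as low as -1.04) and in iCAFs (up to 3.19, against MRC5 listed at 0), and MMP2 in JUN AA (as low as -1.22) and under the inhibitor (up to 1.06). Scaling moved the median gene in JUN AA against control from -0.02 to -0.27 and in JUN WT against JUN AA from 0.18 to 0.43.

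Counts over all genes past 2-fold were 714 higher and 350 lower for JUN WT, 545 and 389 for JUN AA (both against control), 686 and 578 in JUN WT against JUN AA, 228 and 202 in iCAFs against MRC5, and 265 and 232 in iCAFs+JNKi against iCAFs. A pseudocount of 0.1 gave 1229 higher and 527 lower in JUN WT, 629 lower in JUN AA, 1151 higher in JUN WT against JUN AA, 356 lower in iCAFs and 386 lower with the inhibitor. Rescaled FPKM gave 278 higher and 766 lower in JUN AA, and 1406 higher and 307 lower in JUN WT against JUN AA. Centring gave 436 higher in JUN WT and 411 higher in JUN WT against JUN AA. A filter of 5 FPKM gave 458 higher in JUN WT, 438 higher in JUN WT against JUN AA, 128 lower in iCAFs, and 169 higher and 147 lower with the inhibitor. Subtracting GC medians gave 342 higher in JUN WT, 335 higher in JUN WT against JUN AA and 151 lower with the inhibitor. The share of higher genes among those past 2-fold went from 67.1% to 45.5% (centred) and 50.4% (GC) in JUN WT, from 58.4% to 26.6% (rescaled) in JUN AA, from 54.3% to 82.1% (rescaled), 33.3% (centred) and 38.6% (GC) in JUN WT against JUN AA, and from 53.3% to 65.3%, 64.0% and 66.2% with the inhibitor.

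Among the 10 genes, 1 (MMP12) was at least 2-fold lower in JUN WT against JUN AA with a pseudocount of 0.1 or centring. With the inhibitor, 1 was at least 2-fold higher with a pseudocount of 0.1 or no filter, and 2 were with rescaled or centred values or GC medians subtracted. A filter of 5 FPKM, which MMP12 failed, left 2 higher in JUN WT and 1 higher in JUN AA, and GC medians left 1 lower in JUN WT. The median of the AP-1 targets less that of the contrast proteases went from 3.40 to 4.03 (pseudocount 0.1) and 2.89 (GC) in JUN WT, from 2.50 to 2.16 (GC) in JUN AA, from 0.48 to 0.74 and 0.16 in JUN WT against JUN AA, and from 1.38 to 2.50 (pseudocount 0.1) in iCAFs. The cause of these shifts was not tested.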

Other observations

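Cytokines and growth factors that act on fibroblasts were examined beside the proteases. IL1B, a known inducer of MMP1 and MMP3, measured 0 (MRC5), 194 (iCAFs) and 25.9 FPKM (iCAFs+JNKi), and IL6 measured 0.63, 129 and 16.4 FPKM. Of the 9 cytokine genes examined, 7 passed the filter in the JNKi table. Of these 7, 6 were at least 2-fold higher in iCAFs than in MRC5, against 1.94% of all genes. IL1A and IL1B, among them, were listed at 0 in MRC5. With the inhibitor 5 of the 7 were at least 2-fold lower and 1 (TGFB2) higher, against 1.97% and 2.25%. IL1A, at 12.5 (iCAFs) and 0.76 FPKM (iCAFs+JNKi), passed the filter only through iCAFs. For this gene the filter thus favoured a call of higher in iCAFs and of lower with the inhibitor. MMP3 was at 268 FPKM in iCAFs+JNKi, where IL1B and IL6 were lower than in iCAFs but above MRC5. In the JUN overexpression table IL1B was at most 0.23 FPKM. Of the 5 genes passing the filter there, 2 (FGF2 and HBEGF) were at least 2-fold higher in JUN WT than in the control (6.92% of all genes). The part of these cytokines in the protease levels was not tested.

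The genes most like a protease were taken as those with the smallest Euclidean distance over 4 log2 differences (JUN WT and JUN AA against control, iCAFs against MRC5, and iCAFs+JNKi against iCAFs) among 10020 genes passing the filter in both tables. Nearest to MMP1 was SERPINB2 (distance 1.51), followed by HSD11B1, LCE2C, SAT1 and PNP. Nearest to MMP3 was TFPI2 (distance 1.43), followed by CXCL3, MT1L, STC1 and CDCP1. MMP1 and MMP3 had none of these genes in common. MMP11 was followed most closely by UNC5B (1.23), SHC2 and the PDGF receptor gene PDGFRB, whose differences were -2.06, -1.87, -0.24 and 1.65, and MMP2 by NRP2 (0.39). The fibroblast markers COL1A1, COL3A1, DCN and LUM were, like PDGFRB, at least 2-fold higher with the inhibitor than in iCAFs, as 5 of the 9 markers were, against 2.25% of all genes. These are likenesses over 4 differences between single libraries.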
